A study of Mus musculus with 6 samples.

Results

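Seven-transmembrane receptors for chemokines, chemerin and fractalkine were followed in macrophages of mouse epididymal fat after a high-fat diet. The group held 7 genes, Ccr1, Ccr2, Ccrl2, Cx3cr1, Cxcr4, Cmklr1 and Ackr3, of 30838 genes tested. A gene was represented by the array row that carried its symbol and had the highest mean over the 6 arrays, and rows with more than 1 symbol were allowed. Each of the 7 genes had 1 such row, and that of Ackr3 also carried its older symbol, Cxcr7. The mice were C57BL/6J males without a stated genetic change. From 6 weeks of age they were fed chow (NCD) or a 60% high-fat diet (HFD) for 16 weeks, and they were 22 weeks old at collection. Cells of the stromal vascular fraction were selected with a magnetic bead kit and an antibody to the macrophage surface antigen that Adgre1 encodes. Each diet had 3 samples called biological replicates in their titles. They are named by diet and number (NCD1, HFD1), and values of a diet are listed in the order of these numbers. An NCD sample pooled cells of 20 mice and an HFD sample those of 10 mice. The unit of replication was therefore the pool, and the spread between mice was not measured.

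Chemokine receptors are coupled to inhibitory G proteins and steer leukocytes along gradients of their ligands. Ccr2 and its ligand Ccl2 are known for bringing monocytes into obese fat, Ccr1 answers to several inflammatory CC chemokines, and Cx3cr1 binds fractalkine, encoded by Cx3cl1. Cxcr4 retains and attracts cells through Cxcl12. Ackr3 binds the same ligand without G protein signalling and removes it, and in many tissues it is a gene of vessel wall and stromal cells. Cmklr1 is the signalling receptor for chemerin, encoded by Rarres2, and Ccrl2 binds chemerin without signalling and presents it to neighbouring cells.

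Ackr3 was the 1 gene of the 7 called between the diets: its estimate was 3.97-fold lower after HFD, with HFD values near the array background. The call held in 3 of the fits that left out 1 array. The other 6 genes were not called, with changes between −0.74 for Ccr2 and 0.44 for Cxcr4 on the log2 scale. The chemerin gene Rarres2 and the Ccr2 ligand gene Ccl12 fell among 11 ligands. Within NCD, Ccrl2 and Cxcr4 were far apart between pools, whereas the 3 HFD pools lay within 0.37 log2 units for Ccrl2 and 0.14 for Cxcr4. All values are the deposited log2 expression of a transcript cluster, the array's unit for a gene, and changes are HFD minus NCD with the standard error from limma. A gene was called at a Benjamini-Hochberg adjusted p below 0.05 over all genes tested.

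The upstream regions of 3 genes are shown because these genes carried the results: Ackr3 for its change, and Ccrl2 and Cxcr4 for their spread between NCD pools. Each window runs from 250 bases before to 50 bases after the start of a transcript, from RefSeq on build GRCm38.p6, and is written 5′ to 3′ on the strand of the gene. Ackr3 lies on the plus strand (chr1:90203730-90204029), Ccrl2 on the minus strand (chr9:111057469-111057768, the outermost of 3 windows) and Cxcr4 on the minus strand (chr1:128592250-128592549). Capitals mark matches on either strand to the TATA box TATAAA and to a short form of the kappaB site of nuclear factor kappaB, GGAAANNCC.
Ackr3: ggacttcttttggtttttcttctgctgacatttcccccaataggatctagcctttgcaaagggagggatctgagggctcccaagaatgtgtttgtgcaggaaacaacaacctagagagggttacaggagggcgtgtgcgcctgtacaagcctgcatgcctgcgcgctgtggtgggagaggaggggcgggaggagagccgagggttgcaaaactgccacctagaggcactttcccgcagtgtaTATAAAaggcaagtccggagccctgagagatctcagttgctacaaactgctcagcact
Ccrl2: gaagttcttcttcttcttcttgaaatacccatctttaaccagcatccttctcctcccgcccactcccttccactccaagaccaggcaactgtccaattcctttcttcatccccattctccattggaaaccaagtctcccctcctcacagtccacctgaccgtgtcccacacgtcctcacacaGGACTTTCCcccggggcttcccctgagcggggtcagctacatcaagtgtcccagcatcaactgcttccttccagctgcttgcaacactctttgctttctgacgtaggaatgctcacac
Cxcr4: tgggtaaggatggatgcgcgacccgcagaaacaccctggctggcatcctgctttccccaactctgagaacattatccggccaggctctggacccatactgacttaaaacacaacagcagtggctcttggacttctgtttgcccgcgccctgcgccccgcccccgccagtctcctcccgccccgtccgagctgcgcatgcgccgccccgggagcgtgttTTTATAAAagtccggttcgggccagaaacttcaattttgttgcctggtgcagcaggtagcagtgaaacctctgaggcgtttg
The TATA letters stood in the Ackr3 window, at positions −8 to −3 from the start. In the Cxcr4 window they stood as a pair of overlapping matches, at −32 to −27 and −30 to −25. They stood in 13.6% of all 32851 windows in the table. The kappaB letters stood in the outermost Ccrl2 window, at positions −68 to −60 from the start, and in 5.82% of all windows. All 7 genes had a window. The AP-1 letters TGANTCA were found in 0 of their 9 windows, against 7.81% of all windows, and the PU.1 core GAGGAA stood in those of Ccr1 and Cmklr1, against 28.3% of all windows. The motifs were chosen after values and sequences had been seen, and a match describes letters only.

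The arrays carried the genes of the selected cells. Of 10 macrophage identity genes 8 were measured, all above the background level of 6.23 log2 given by the array's antigenomic probe sets; Fcgr1 and Cd68 rose, Mertk fell and 5 were not called. Adgre1 lay between 15.05 and 16.08 in NCD and between 16.54 and 16.70 in HFD (adjusted p = 0.0931). The mean deviation of these 8 genes was lowest on NCD3, at −0.65, and lay between 0.05 and 0.27 on the other 5 arrays. Markers of other cells were present too: all 11 measured endothelial markers were above background, as were all 10 smooth muscle and pericyte markers. In selected bulk cells, fewer cells of a type and less RNA per cell cannot be told apart. Of 30838 genes, 2359 were called (7.65%), 1500 higher and 859 lower; after centring each column on its median 2523 were higher and 701 lower. Of the 7 receptor genes 1 was called, so their share was read against 7.65% for calls in either direction, 4.86% for calls higher and 2.79% for calls lower. Their median change was −0.41, beside 0.01 over all genes.

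**Figure D1:**
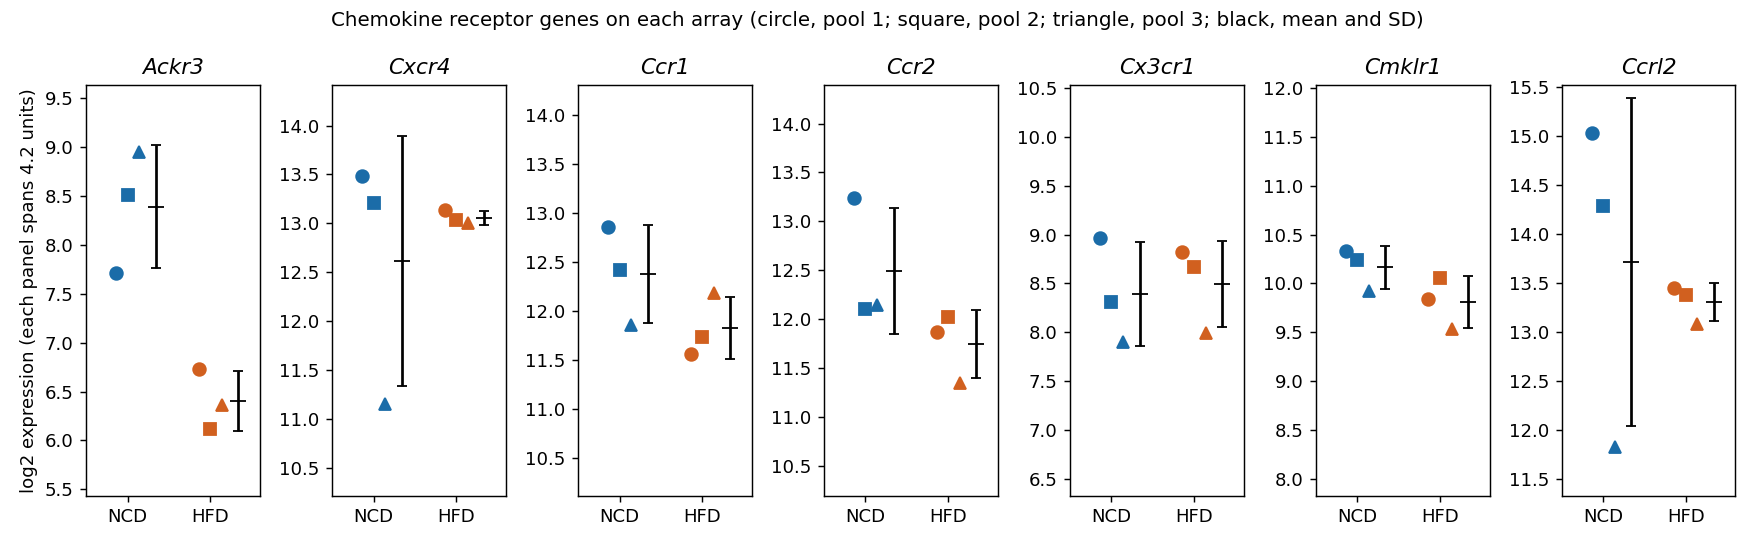
The 7 receptor genes on each array, as log2 expression, in panels of equal height (4.2 log2 units) with their own offset, since levels of different genes are not comparable; symbols are pools and black bars the mean and SD of 3 pools. The HFD pools of Ackr3 (6.12 to 6.73) lie below all NCD pools (7.71 to 8.95), and NCD3 is far below the other NCD pools in Cxcr4 and Ccrl2.

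Ackr3, the atypical receptor that takes up Cxcl12, was at 7.71, 8.51 and 8.95 in NCD and at 6.73, 6.12 and 6.36 in HFD. The diets did not overlap, and NCD1 and HFD1 were the arrays nearest to each other across the gap. The change was −1.99 ± 0.32 (95% interval −2.76 to −1.22, adjusted p = 0.0190, 3 arrays per diet). HFD2 was below the background level of 6.23 and the other HFD arrays were close above it, so the size of the fall is uncertain. Groups that did not overlap, with HFD lower, were found for 12.8% of all genes. The call was lost without NCD2 (−1.93, adjusted p = 0.0831), without HFD2 (−1.85, adjusted p = 0.0854) and without HFD3 (−1.97, adjusted p = 0.0902), and with the neutrophil marker score as a covariate (−1.98, adjusted p = 0.0568).

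Markers of vessel wall and stromal cells were read beside Ackr3. The mean deviation of the 11 endothelial markers was −0.50, 1.4 and 1.85 in NCD and 0.01, −1.35 and −1.41 in HFD; 0 of 11 were called, with a median change of −1.90. In summed level these markers were at 18.06 to 19.74 log2 in NCD and at 17.32 to 18.35 in HFD. The mean deviation of the 10 smooth muscle and pericyte markers was 0.44, 1.38 and 2.37 in NCD and −0.79, −1.57 and −1.82 in HFD, and their summed level was at 15.52 to 17.49 in NCD and at 12.15 to 13.61 in HFD. Of these 10 genes 7 fell, among them the smooth muscle actin gene Acta2, and the median change was −2.27. Of 7 measured fibroblast and progenitor markers, 5 rose and 0 were called lower, with a median change of 1.41. Dcn changed by −0.88 and was not called (adjusted p = 0.127), with all its HFD pools below all NCD pools. The summed level of this list overlapped between the diets, at 12.99 to 13.83 in NCD and at 13.18 to 13.94 in HFD.

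The mean deviation of the endothelial list overlapped between the diets and Ackr3 did not: NCD1 was below HFD1 in the list and above it in Ackr3. Within the list Aqp1 did not overlap either, with NCD1 at 15.29 and HFD1 at 15.27. With the endothelial score as a covariate the change of Ackr3 was −1.16 ± 0.18 (adjusted p = 0.0342). With the smooth muscle score as a covariate it was −0.32 ± 0.31 (adjusted p = 0.760). That score did not overlap between the diets, so diet and score could hardly be told apart in this fit, which called 23 genes in all. The smooth muscle fit was added after the values had been seen. The part of these cells in the fall of Ackr3 was not tested beyond these values.

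The 2 genes most like Ackr3 were Cebpd, a C/EBP transcription factor gene, and Mylk, a myosin light chain kinase gene. Likeness was the root mean square difference between 2 genes' log2 values over the 6 arrays, each gene centred on its mean, and it was 0.079 for Cebpd and 0.104 for Mylk. Cebpd was at 8.83, 9.40 and 9.95 in NCD and at 7.72, 7.24 and 7.36 in HFD. Mylk was at 8.34, 8.81 and 9.44 in NCD and at 7.27, 6.68 and 6.87 in HFD. Both genes had the same order of arrays as Ackr3, which follows from their choice by likeness. After quantile normalization Cebpd was again among the 2 nearest genes and Mylk was not.

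**Figure D2:**
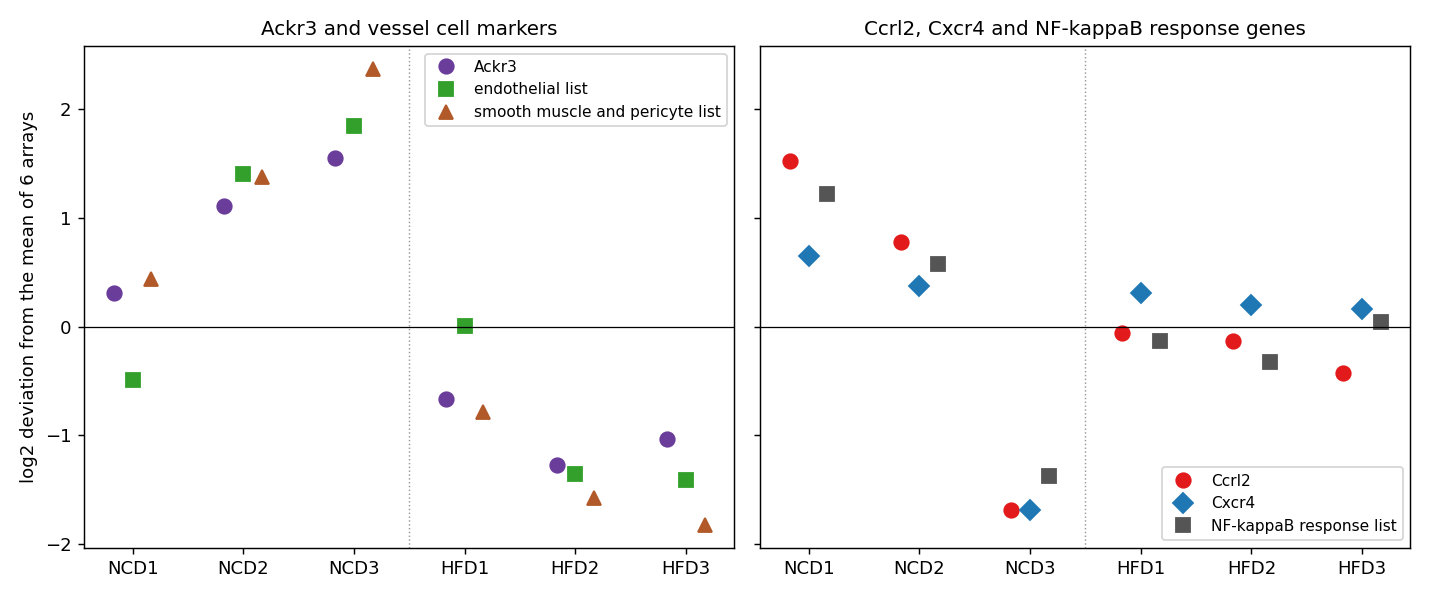
Deviation of genes and of marker lists (mean over the genes of a list) from their own mean over the 6 arrays, in log2 units, by array; the dotted line parts the diets. Ackr3 is above 0 on all NCD arrays and below 0 on all HFD arrays, as is the smooth muscle list, while Ccrl2 and Cxcr4 have their lowest value on NCD3, as does the list of NF-kappaB response genes (−1.38).

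Cxcr4, the signalling receptor for Cxcl12, was at 13.48, 13.21 and 11.15 in NCD and at 13.14, 13.03 and 13.00 in HFD. The HFD pools lay between NCD2 and NCD3, so the diets overlapped, and NCD3 stood far below every other pool. The change was 0.44 ± 0.58 (95% interval −0.95 to 1.83, adjusted p = 0.721). Without NCD3 it was −0.29 (adjusted p = 0.253) and without NCD1 0.87 (adjusted p = 0.395), so 1 pool set its direction. The direction was also lower with the endothelial score (−0.48, adjusted p = 0.845) and with the smooth muscle score (−2.06, adjusted p = 0.465). With the score of NF-kappaB response genes as a covariate Cxcr4 was called, at 0.70 ± 0.16 (adjusted p = 0.0382).

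Ackr3 and Cxcr4 share the ligand Cxcl12 and were set side by side. The log2 difference Ackr3 minus Cxcr4, centred over the arrays, was −0.33, 0.74 and 3.24 in NCD and −0.97, −1.48 and −1.20 in HFD. It was lower in all 3 HFD pools than in any NCD pool, with a mean change of −2.43. An exact permutation test gave two-sided p = 0.1, the smallest that 3 pools against 3 can give, so no call was possible. Ackr3 alone changed by −1.99 and already did not overlap between the diets, so the separation is not a result about the pair. The mean change of the difference rested in part on NCD3 and was −1.42 without it, and −3.21 without NCD1. Their ligand Cxcl12, a product of stromal and vessel wall cells, was at 10.00, 11.69 and 12.08 in NCD and at 10.63, 9.29 and 9.20 in HFD. Its change was −1.55 ± 0.62 and was not called (adjusted p = 0.189). It was −2.18 and called without NCD1 (adjusted p = 0.0272) and 0.14 with the endothelial score. The second Ackr3 ligand, Cxcl11, was below background, at 4.74 to 5.09 on all arrays.

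Ccrl2, the chemerin-presenting receptor, had the widest NCD spread of the 7 genes, at 15.03, 14.29 and 11.82 in NCD. On HFD1 to HFD3 it was at 13.45, 13.38 and 13.08, inside the NCD range. The change was −0.41 ± 0.76 (95% interval −2.23 to 1.42, adjusted p = 0.808), so that neither a fall nor a rise of over 2-fold lay outside the interval. The direction turned without NCD1 (0.25, adjusted p = 0.867), and the gene was called lower without NCD3 (−1.35, adjusted p = 0.0396). The SD of Ccrl2 over the NCD pools was 1.68 and exceeded that of 99.8% of the 16066 genes above background; for Cxcr4 the SD was 1.28 and exceeded that of 98.8%. In HFD the SD was 0.20 for Ccrl2 and 0.07 for Cxcr4, with 77.6% and 27.4% of these genes below them.

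The genes most like Ccrl2 were Nfkbid, which encodes an inhibitor of nuclear factor kappaB (0.173), and the chemokine gene Ccl3 (0.205). Those most like Cxcr4 were the stress transcription factor gene Atf3 (0.164) and Cd83, a surface marker gene of activated antigen-presenting cells (0.231). Nfkbid, Atf3 and Cd83 were again among the 2 nearest genes after quantile normalization and Ccl3 was not. Nfkbid was at 11.66, 10.58 and 8.04 in NCD and at 9.76, 9.86 and 9.76 in HFD. Its extremes were in NCD1 and NCD3, as for Ccrl2, which follows from its choice by likeness. The list of 10 NF-kappaB response genes, which holds Nfkbid, deviated by 1.22, 0.57 and −1.38 in NCD and by −0.14, −0.32 and 0.04 in HFD. Of its genes 0 rose, 2 fell (Icam1 and Ier3) and 8 were not called, with a median change of −0.23. Tnf, Il1b, Tnfaip3, Cxcl2, Ptgs2 and Nfkbid had their lowest value on NCD3. Icam1, Ier3, Nfkbia and Nfkbiz did not, and Icam1 was highest there (11.51). With the score of this NF-kappaB list as a covariate the change of Ccrl2 was −0.07 (adjusted p = 0.879). It was −1.72 with the endothelial score (adjusted p = 0.451) and −3.75 with the smooth muscle score (adjusted p = 0.314). Of 9 measured immediate early genes, which include Atf3, 6 fell, 0 rose and 3, with Atf3 among them, were not called; the list deviated by 1.00, 0.78 and −0.01 in NCD and by −0.51, −0.45 and −0.80 in HFD. NCD3 was also the array with the most endothelial and the least macrophage signal, and the part of cell mixture or of activation during cell isolation in this spread was not tested.

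Ccr2, the receptor that monocytes use to enter inflamed tissue, was at 13.24, 12.10 and 12.14 in NCD and at 11.87, 12.02 and 11.35 in HFD. The diets did not overlap, by the narrow gap between NCD2 and HFD2, and NCD1 stood more than 1 log2 unit above the other NCD pools. The change was −0.74 ± 0.34 (95% interval −1.56 to 0.07) and was not called (adjusted p = 0.248). It ran from −0.94 without NCD2 to −0.37 without NCD1 and was called in 0 of the fits without 1 array. It was −1.32 with the endothelial score (adjusted p = 0.194) and −1.71 with the smooth muscle score (adjusted p = 0.439). Groups that did not overlap were found for 2 of the 7 receptor genes, Ccr2 and Ackr3, and for 30.4% of all genes.

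Markers of monocytes and of B cells were read beside Ccr2. Of 9 measured monocyte markers, which did not include Ccr2, 1 fell (Ace, −2.27, adjusted p = 0.0238), 0 rose and 8 were not called, with a median change of −0.77. Their summed level was 18.60 to 18.91 log2 in NCD and 17.44 to 17.95 in HFD. Fn1 was the largest term of this sum on every array, at 18.36, 18.26 and 17.68 in NCD and 17.42, 17.50 and 17.07 in HFD (−0.77, adjusted p = 0.0729). It encodes fibronectin and is not particular to monocytes. The sum did not have the order of Fn1: within NCD the sum was highest on NCD2 (18.91) and Fn1 on NCD1. The inflammatory monocyte gene Ly6c2, also a large term of the sum on NCD3, was at 15.60, 16.80 and 17.30 in NCD and at 15.72, 14.38 and 14.48 in HFD. Its NCD order was unlike that of Ccr2. Ly6c2 was lower on NCD1 than on HFD1, as was the endothelial list. Within NCD, Plac8, Treml4, Nr4a1, Spn and Fn1 were highest on NCD1, as was Ccr2, whereas Chil3, Hp and Ace were not. The summed level of 5 B cell markers was 13.61 on NCD1 and 11.23 to 12.08 on the other 5 arrays. The 2 genes most like Ccr2 were the predicted gene Gm4759 (0.106) and Gimap3, a lymphocyte GTPase gene (0.107). Both were highest on NCD1, which follows from their choice by likeness. The part of these cells in the NCD1 level of Ccr2 was not tested.

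Among the Ccr2 ligands, Ccl12, a monocyte attractant of mice, was at 8.92, 8.86 and 8.38 in NCD and at 7.13, 6.62 and 6.80 in HFD. The diets did not overlap, and Ccl12 fell 3.65-fold (−1.87 ± 0.19, adjusted p = 0.00654). It kept its call without each array in turn and lost it with the smooth muscle score (−2.21, adjusted p = 0.164). Ccl2, the main Ccr2 ligand, was at 12.07, 11.57 and 10.38 in NCD and at 11.08, 10.94 and 11.52 in HFD (−0.16 ± 0.42, adjusted p = 0.871). Ccl7, a ligand of both Ccr2 and Ccr1, was at 10.20, 10.09 and 8.99 in NCD and at 8.24, 8.11 and 8.96 in HFD, where NCD3 and HFD3 nearly met. Its change of −1.32 ± 0.37 was not called (adjusted p = 0.0853), and it was called without NCD3 (−1.70, adjusted p = 0.0294), with array weights and with the NF-kappaB score.

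Ccr1, a receptor of inflammatory CC chemokines on macrophages and neutrophils, was at 12.86, 12.42 and 11.86 in NCD and at 11.56, 11.73 and 12.18 in HFD. The diets overlapped, with HFD3 above NCD3. The change was −0.55 ± 0.28 (95% interval −1.23 to 0.13, adjusted p = 0.301) and ran from −0.81 without NCD3 to −0.31 without NCD1, called in 0 of these fits. HFD3 also had the highest summed level of 10 neutrophil markers, at 14.67 there and at 11.08 to 12.78 on the other arrays. The largest terms on HFD3 were S100a9 (13.52) and S100a8 (12.83). These, Csf3r, Retnlg, Mmp8 and Lcn2 were highest on HFD3. Ly6g, Mmp9, Ngp and Camp were not, with Ngp and Camp below background in their mean. Cxcr2, the receptor of neutrophils, was at 9.20 on HFD3 and at 7.19 to 7.53 on the others. With the neutrophil score as a covariate the change of Ccr1 was −0.44 (adjusted p = 0.479). With the endothelial score it was −1.19 (adjusted p = 0.0768) and with the smooth muscle score −1.996 (adjusted p = 0.0987), larger than without a covariate and not called.

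The Ccr1 ligands had values unlike each other. Ccl3, an early inflammatory chemokine, was at 15.50, 14.35 and 12.44 in NCD and at 13.52, 13.65 and 13.49 in HFD (−0.54 ± 0.70, adjusted p = 0.714), and was the second of the genes most like Ccrl2. Ccl6 and Ccl9, CC chemokines that mouse macrophages make constitutively, were at 15.52 to 15.80 and at 16.04 to 16.77 over all arrays. Ccl6 changed by −0.01 ± 0.12 (adjusted p = 0.962; its sign turned with centring or quantile normalization) and Ccl9 by 0.37 ± 0.15 (adjusted p = 0.186), neither of them called. Ccl5, a chemokine of T cells and activated macrophages, was at 8.16 on NCD1 and at 6.94 to 7.20 on the other arrays (−0.41 ± 0.29, adjusted p = 0.462). The 2 genes most like Ccr1 were the microRNA gene Mir6539 (0.109) and the predicted gene Gm3458 (0.125).

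Cx3cr1, the fractalkine receptor of patrolling monocytes and of resident macrophages, was at 8.96, 8.31 and 7.90 in NCD and at 8.82, 8.67 and 7.99 in HFD. Each diet spanned almost the same range. The change was 0.11 ± 0.32 (95% interval −0.66 to 0.87, adjusted p = 0.887), and its sign turned without NCD3 (−0.14), without HFD1 (−0.06) and with 3 of the marker scores. The ligand gene Cx3cl1, expressed by endothelium, was at 5.87, 7.18 and 7.65 in NCD and at 6.24, 5.90 and 5.87 in HFD, with NCD1 and 2 of the HFD arrays below background. Its change was −0.90 ± 0.43 (adjusted p = 0.265), and it was called without NCD1 (−1.41, adjusted p = 0.00858). The genes most like Cx3cr1 were the small nucleolar RNA gene Snord91a (0.105) and the predicted gene Gm11821 (0.122).

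Cmklr1, the chemerin receptor, had the smallest NCD spread of the 7 genes. It was at 10.33, 10.24 and 9.92 in NCD and at 9.84, 10.06 and 9.53 in HFD, and the diets overlapped through HFD2 and NCD3. The change was −0.35 ± 0.18 (95% interval −0.79 to 0.08, adjusted p = 0.299), so the interval held no change of 2-fold in either direction. It kept its direction without each array, from −0.48 to −0.21, and was called in 0 of these fits; with the smooth muscle score it was −0.70 (adjusted p = 0.575). The genes most like Cmklr1 were the predicted genes Gm23138 (0.050) and Gm25323 (0.055).

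The chemerin gene Rarres2 was at 8.70, 8.75 and 9.12 in NCD and at 7.10, 7.37 and 7.57 in HFD. The diets were apart by more than 1 log2 unit, and Rarres2 fell 2.85-fold (−1.51 ± 0.17, adjusted p = 0.00748). It was called without each array in turn and not with the smooth muscle score (−1.34, adjusted p = 0.295). Chemerin is known as a product of adipocytes, stromal cells and mesothelium: all 7 mesothelial markers fell as well (median −1.76, 4 of them below background). Of 7 measured fibroblast and progenitor markers 5 rose, and Dcn was lower without a call (−0.88, adjusted p = 0.127). The part of these cells in the fall of Rarres2 was not tested. Over the 11 ligands, 0 rose, 2 fell and 9 were not called, with a median change of −0.54, beside 7.65% called over all genes.

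**Figure D3:**
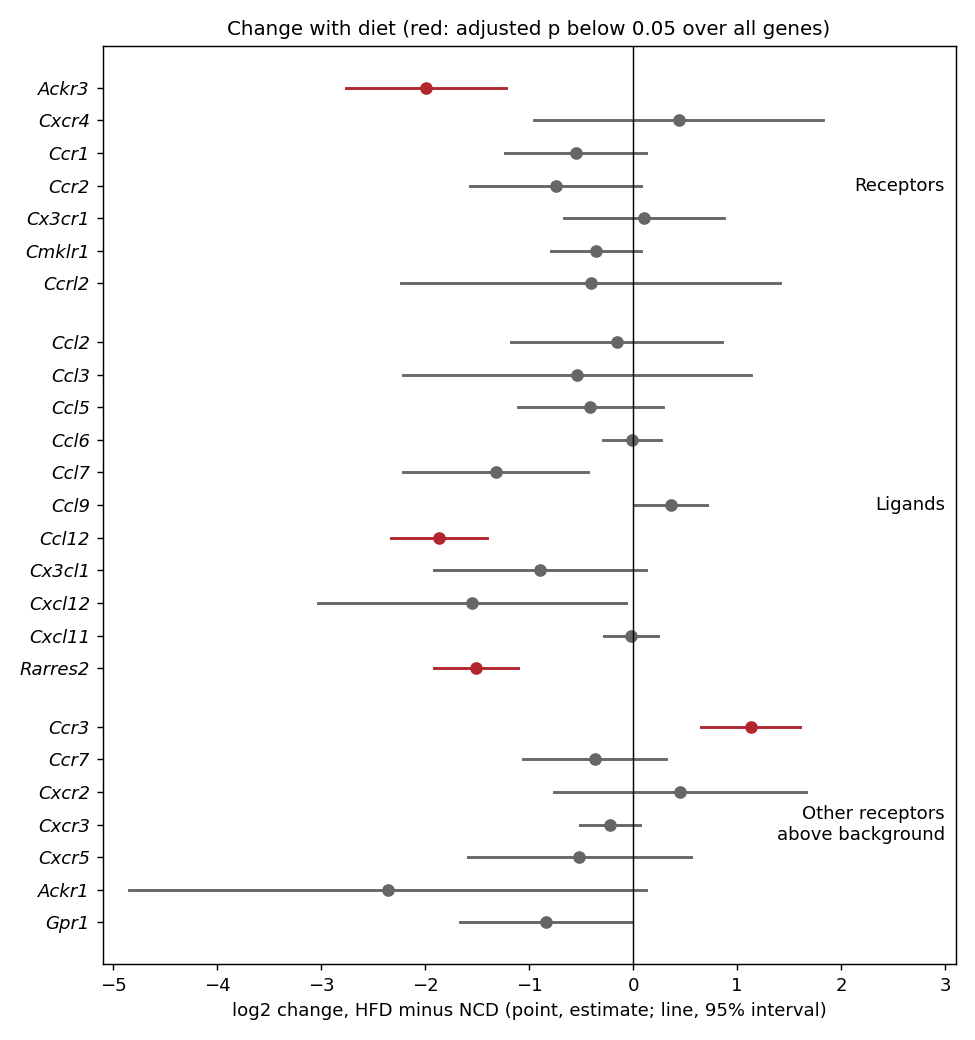
Change with diet (log2, HFD minus NCD; points are estimates and lines 95% intervals from limma) of the 7 receptor genes, 11 ligands and 7 other receptors whose mean was above background. Red marks the 4 genes called over all genes tested: Ackr3, Ccl12 and Rarres2 lower and Ccr3 higher.

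Of 18 other measured receptors of chemokines and chemerin, 1 rose, 0 fell and 17 were not called, beside 7.65% called over all genes. Their median change was −0.06, and 11 had a mean below background. Ccr3, the eotaxin receptor, rose 2.19-fold (1.13 ± 0.20, adjusted p = 0.0238), from 6.27, 6.43 and 5.71 in NCD to 7.31, 7.42 and 7.07 in HFD. The NCD values lay around the background level of 6.23, and the call was lost without NCD2 or any 1 of the HFD arrays, at changes of 1.05 to 1.28. It was also lost with the endothelial score (0.97, adjusted p = 0.182), the neutrophil score (1.07, adjusted p = 0.0672) and the smooth muscle score (0.60, adjusted p = 0.665). Ccr3 is known from eosinophils and mast cells. Of 4 measured eosinophil markers 0 were called, and 2 of them, Epx and Prg2, had a mean below background. Of 6 mast cell markers 3 rose, and Ms4a2 had a mean below background. Their summed level was 9.48 to 9.90 in NCD and 10.30 to 10.70 in HFD. The part of these cells in the rise of Ccr3 was not tested. Ccr3 lies between Ccr1l1 and Ccr2 in the gene order of chromosome 9, next but one to Ccr1. These genes are close copies of each other, and shared probe sequence was not tested. Ackr1, the atypical chemokine receptor of venous endothelium, was at 9.36, 11.54 and 12.92 in NCD and at 10.59, 8.17 and 7.98 in HFD. Its change of −2.36 ± 1.04 was not called (adjusted p = 0.229), and its order of arrays was that of the endothelial list. Gpr1, a further chemerin receptor, was at 6.06 to 7.44 in NCD and at 5.67 to 6.21 in HFD (−0.84 ± 0.35, adjusted p = 0.201).

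In the list of 28 genes that carry or end chemokine receptor signals, 25 were measured: 1 rose, 1 fell and 23 were not called. Their median change was 0.40. This share of calls was near the 7.65% called over all genes. Pik3r5, the regulatory subunit of the phosphoinositide 3-kinase that G proteins activate, rose 2.40-fold, from 11.77, 11.44 and 11.03 in NCD to 12.38, 12.77 and 12.88 in HFD (1.26 ± 0.22, adjusted p = 0.0245). Grk5, a kinase that desensitises such receptors, fell 2.03-fold, from 12.62, 12.94 and 13.01 in NCD to 11.98, 11.89 and 11.62 in HFD (−1.02 ± 0.16, adjusted p = 0.0169). Neither diet overlapped the other in these 2 genes, as in 30.4% of all genes, and both calls were lost in the fits that left out NCD2, HFD2 or HFD3. With the endothelial score Pik3r5 was at 0.74 (adjusted p = 0.106) and Grk5 at −0.71 (adjusted p = 0.100), and with the smooth muscle score they were at 0.13 (adjusted p = 0.886) and −0.40 (adjusted p = 0.638). Pik3r5 also lost its call with the neutrophil score (1.33, adjusted p = 0.0566). The inhibitory G protein subunit genes Gnai2 and Gnai3 changed by −0.10 ± 0.12 and by 0.00 ± 0.13 and were not called.

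**Figure D4:**
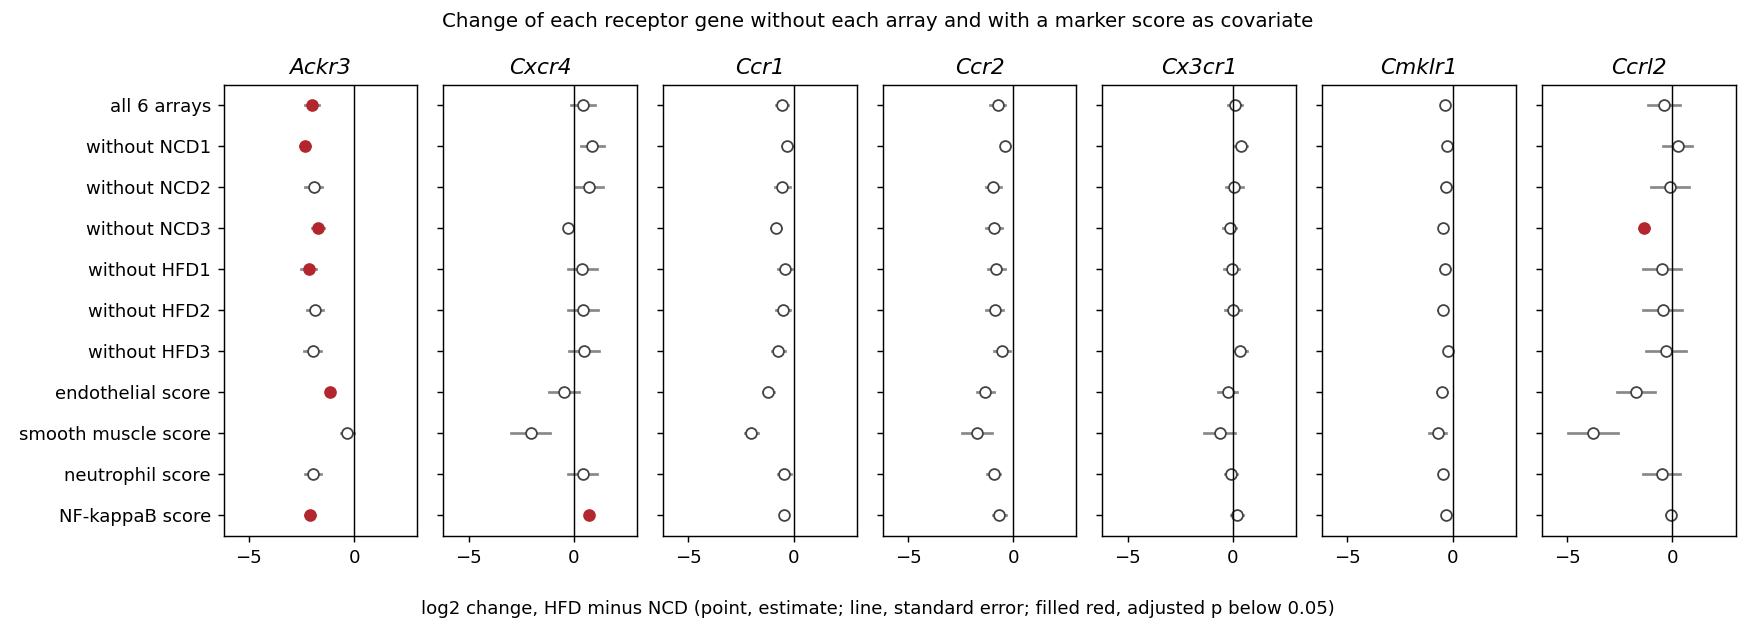
Change of each receptor gene (log2, HFD minus NCD; point, estimate; line, standard error) with all 6 arrays, without each array and with a marker score as a covariate; filled red points were called. Ackr3 is below 0 throughout, from −2.33 to −0.32, while Cxcr4 and Ccrl2 lie on both sides of 0 and each is called in 1 setting.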

How the data were processed

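Array expression was measured in 6 pools of selected macrophages, 3 per diet, from 100 ng of RNA each. The authors deposited log2 values per transcript cluster; RMA, Transcriptome Analysis Console 3.1.0.5 and Affymetrix Expression Console 1.4.1.46 appear in the submitters' processing notes. What each did, and the genome build, is not given in the sources used here. Arrays have no read depth, and their number limits the precision, with a median standard error of 0.118 log2 for a change. The 6732 control probe sets were left out. Of 65956 clusters, 30604 had 1 symbol, 2146 several and 33206 none; clusters with several symbols were used where these shared 1 Entrez identifier (798), since Ackr3 has such a row. Symbols came from the platform annotation, updated through Entrez identifiers in RefSeq (23602 matched). For each gene the cluster with the highest mean was kept, giving 30838 genes. Background was the mean over arrays of the 95th percentile of 23 antigenomic probe sets.

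Diets were compared with limma 3.58.1 (lmFit, eBayes with a trend) in R 4.3.3, two-sided, with Benjamini-Hochberg adjustment over all genes; the code was tested on simulated data. Figures used matplotlib 3.10.9. The receptor genes and all lists were chosen with earlier results of these data known. Named genes were the 7 receptors, 11 ligands, called genes of the other receptor and signalling lists (at most 8 each), and the 2 genes above background most like each receptor; Ackr1, Gpr1, Cxcr2, Gnai2, Gnai3 and the marker genes were named after their values were seen. Alternatives were single arrays left out, replicate block, scaling, variance model, array weights, filters, row choice and marker scores.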

Additional observations from a re-analysis of the deposited data

How the results depend on the processing

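The number of genes called was 410 to 4769 without each array in turn, 4335 with array weights, 663 with the endothelial score as a covariate, 1243 with the neutrophil score, 4373 with the NF-kappaB score and 23 with the smooth muscle score. Of the receptor genes, 0 to 2 were called without each array in turn; 0 of 6 were called with 1-symbol rows only, which leave out Ackr3, 0 with the neutrophil or smooth muscle score, and 2, Ackr3 lower and Cxcr4 higher, with the NF-kappaB score. Ccr1, Ccr2 and Cmklr1 kept their direction and stayed uncalled under all 19 alternatives, and Ackr3 kept its direction under the 18 that held it.

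Same-numbered pools did not deviate together: the correlations of their deviations were −0.455, −0.120 and −0.142, and 0 of 6 samples correlated best with their own number. With the replicate number as a block 145 genes were called and 0 of the receptor genes, with Ackr3 at an adjusted p of 0.0873, Ccr3 at 0.0544, Pik3r5 at 0.114 and Grk5 at 0.0960.

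Values whose sign turned all belonged to genes that were not called in either fit. Without single arrays the changes ran from −1.35 to 0.25 for Ccrl2, −0.14 to 0.39 for Cx3cr1, −0.29 to 0.87 for Cxcr4, −0.64 to 0.21 for Ccl2, −1.37 to 0.16 for Ccl3, −0.0868 to 0.0531 for Ccl6 and −0.0777 to 0.0731 for Cxcl11. With the endothelial score Cx3cr1 was at −0.25, Cxcr4 at −0.48, Cx3cl1 at 0.20 and Cxcl12 at 0.14. With the smooth muscle score Cx3cr1 was at −0.63, Cxcr4 at −2.06, Ccl9 at −0.32, Cx3cl1 at 1.29 and Cxcl12 at 1.69. With the neutrophil score Cx3cr1 was at −0.10, Ccl6 at 0.0418 and Cxcl11 at 0.0163. With the NF-kappaB score Ccl2 was at 0.0259, Ccl6 at 0.0120 and Cxcl11 at 0.00789. With centred columns Ccl6 was at 0.0718 and Cxcl11 at 0.0662, and with quantile normalization Ccl6 was at 0.0326. The cause was not tested. Of the 14 nearest genes, 14 were the same with centred columns and 7 with quantile normalization (Gm4759, Nfkbid, Snord91a, Atf3, Cd83, Gm23138 and Cebpd). The smooth muscle score, the rescaled likeness and the single-array values of Ackr3 minus Cxcr4 were chosen after seeing the data. Fits without 1 array have fewer residual degrees of freedom. The signal of Ackr3 in HFD, and of Ccr3 in NCD, lay near the array background, which limits the size of their changes.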
